A study of Mus musculus with 20 samples.

Results

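Cells hold on to the matrix around them through a small set of surface receptors, and 10 of those genes are described here across the kidneys of Alport mice. They are the integrin subunits Itga1, Itga2, Itga3, Itga8, Itga11, Itgav, Itgb1 and Itgb6 and the discoidin domain receptors Ddr1 and Ddr2, chosen by name as receptors for collagens, laminins and other matrix proteins, and they are 10 of the 47069 genes in the count table. Total kidney RNA was sequenced from 20 male mice aged 15 weeks. The WT group held 5 untreated wild-type mice. The other groups were Col4a3-/- mice of the same F1 strain (129SJ x C57Bl/6J), whose Col4a3 gene, for a type IV collagen chain of mature basement membranes, is disrupted, and their treatment began at 5 weeks of age. The Veh group (6 mice) was injected with PBS each week. The Anti-miR-21 group (6 mice) was injected each week under the skin with 50 mg/kg of lademirsen, an oligonucleotide that blocks the microRNA miR-21. The ACEi group (3 mice) drank ramipril, which blocks the angiotensin-converting enzyme, and was also injected with PBS. The labels give ramipril as 11 mg/L of drinking water and the deposited library table gives 4 mg/kg.

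An integrin is a pair of an α and a β subunit that spans the membrane, binds matrix outside the cell and holds the actin cytoskeleton inside through adaptors such as talin and kindlin. The β1 subunit pairs with α1, α2 and α11 to bind collagens, with α3 to bind laminins of basement membranes and with α8 to bind nephronectin and other ligands that carry the peptide Arg-Gly-Asp, while αv pairs with several β subunits, among them β6, which is made by epithelium and releases TGF-β from its latent complex. DDR1 and DDR2 are tyrosine kinases that are switched on by collagen itself. In the kidney α3β1 anchors the podocyte to the glomerular basement membrane, the structure that is built wrongly when the collagen α3 chain is missing.

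The Anti-miR-21 group was given an inhibitor of a microRNA that pairs with transcripts through its seed, so the microRNA and the places in the receptors' transcripts with letters that match this seed are shown first. The mature sequence (RefSeq, GRCm38.p6, chr11:86584120-86584141, minus strand) has its seed, bases 2 to 8, in capitals.
mmu-miR-21a-5p: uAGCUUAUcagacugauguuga
The letters complementary to the seed, ATAAGCT, were searched on the sense strand in the longest annotated 3′ untranslated region of each gene (GENCODE vM21, GRCm38). They were found in 2 of the 10 receptor genes, at 2 places in Itga1 and 1 in Itgav, each shown with 8 bases to either side and the match in capitals.
Itga1, base 1285 of 6994, chr13:114958791-114958813 (minus strand): gctgtaacATAAGCTtgcagatt
Itga1, base 2781 of 6994, chr13:114957295-114957317 (minus strand): cccctgacATAAGCTacatatta
Itgav, base 461 of 3581, chr2:83803788-83803810 (plus strand): ttgacttcATAAGCTactgaaga
The second Itga1 match and the Itgav match are followed by an A. Of all 21037 genes with such a region, 7.18% hold the letters, and of genes whose region is within 10% of the same length 35.1% do for Itga1 and 18.8% for Itgav. The match is a description of letters and was not tested as a binding site. Itgb1, Itga2, Itga3, Itga8, Itga11, Itgb6, Ddr1 and Ddr2 hold none in that region.

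Promoters are shown for 3 genes whose values differ most in kind, the shared subunit Itgb1, the subunit Itgb6, whose calls with TMM scaling ran opposite to those of the other called genes, and Ddr2, which rose most in Veh of the 8 genes with at least 10 counts in every mouse. Each is the window of 300 bases from RefSeq (GRCm38.p6) that runs from 250 bases before the annotated start to 50 after it, 5′ to 3′, with matches to any of 4 motifs in capitals.
Itgb1 promoter, chr8:128685404-128685703 (+ strand): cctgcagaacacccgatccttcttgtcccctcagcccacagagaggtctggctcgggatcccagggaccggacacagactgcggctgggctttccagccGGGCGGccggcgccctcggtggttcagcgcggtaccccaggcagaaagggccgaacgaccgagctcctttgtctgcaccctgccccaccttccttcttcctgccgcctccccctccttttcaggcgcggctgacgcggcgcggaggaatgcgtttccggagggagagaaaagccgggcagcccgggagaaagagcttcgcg
Itgb6 promoter, chr2:60722554-60722853 (- strand): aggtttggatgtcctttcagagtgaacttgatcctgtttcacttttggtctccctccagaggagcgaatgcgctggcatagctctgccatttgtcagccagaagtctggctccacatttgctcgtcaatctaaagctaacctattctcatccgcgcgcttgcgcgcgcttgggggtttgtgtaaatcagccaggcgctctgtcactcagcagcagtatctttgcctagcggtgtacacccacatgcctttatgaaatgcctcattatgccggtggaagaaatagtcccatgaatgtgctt
Ddr2 promoter, chr1:170088895-170089194 (- strand): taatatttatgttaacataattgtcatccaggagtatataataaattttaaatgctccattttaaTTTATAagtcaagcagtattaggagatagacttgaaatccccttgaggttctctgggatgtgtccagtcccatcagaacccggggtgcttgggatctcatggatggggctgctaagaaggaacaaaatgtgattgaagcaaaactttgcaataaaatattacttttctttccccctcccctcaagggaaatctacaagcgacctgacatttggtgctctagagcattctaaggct
The motifs were the AP-1 site TGANTCA, the GC box GGGCGG, the TATA box TATAAA and the CCAAT box CCAAT, searched on both strands, with no overlap between the matches in these windows. Itgb1 held 1 GC box, Ddr2 held 1 TATA box match, read on the opposite strand 185 bases before a start that lies within the longer gene span of the GENCODE annotation, and Itgb6 held none of the 4. Over all 32851 promoter windows of the same length 35.7% held a GC box, 13.6% a TATA box match, 7.81% an AP-1 site and 37.4% a CCAAT box. Among the first listed windows of the 10 receptor genes, 5 held a GC box, 1 a TATA box match and 0 either of the other motifs. Over all 15 listed windows of these genes, 8 held a GC box, 1 a TATA box match, 2 an AP-1 site and 2 a CCAAT box. The GC content was 67.3% for Itgb1, 50.3% for Itgb6 and 39.0% for Ddr2, against a median of 52.7% over all windows.

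The counts summed to between 28474301 and 29479629 per mouse. Every marker of podocytes, proximal tubule, thick ascending limb and collecting duct was present in every library, although the labels' extraction text names adipose tissue. The summed adipocyte markers ranged from 0.525 to 410 CPM (read counts scaled to library size) over the 20 mice, and within Veh alone from 0.592 to 410. Col4a3, the disrupted gene, had 4350 to 5663 counts in WT and 1015 to 1931 in the Col4a3-/- mice, so reads assigned to the gene remained. Levels below are CPM after scaling with edgeR's TMM factors, and a gene was called higher or lower at an adjusted p-value under 0.05 from edgeR's quasi-likelihood test over 17622 genes. All 10 receptor genes passed the filter on low counts, Itga2 and Itga11 only through the mice in which they were high, so their fitted values are given below as descriptions.

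Veh and WT mice differed in genotype and in the PBS injections. Between their kidneys, 8 of the 10 genes were higher in Veh (Itga1, Itga2, Itga3, Itga11, Itgav, Itgb1, Ddr1 and Ddr2), Itgb6 was lower and Itga8 did not pass. Without Itga2 and Itga11 this was 6 higher and 1 lower of 8. The background was high: 39.0% of all genes tested were called higher and 34.0% lower in the same comparison. The median log2 fold change of the 10 genes was 0.83, beside 0.07 for all genes. The outcome for Itgb6 and Itga8 rests on the scaling. When the library totals alone were used, the median of all genes moved to 0.65, the share of higher genes among all calls moved from 53.4% to 81.2%, and all 10 receptor genes were called higher, Itgb6 and Itga8 included.

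Itgb1, the β1 chain that most collagen and laminin receptors share (ENSMUSG00000025809, chr8:128685654-128733200, plus strand), measured 202.98, 239, 216, 200 and 177 CPM in the WT mice. The Veh mice ranged from 339 to 380 CPM with a median of 363, the Anti-miR-21 mice from 240 to 302 with a median of 280, and the ACEi mice measured 331, 303 and 313. Every Veh mouse lay above every other mouse, and the WT mice lay below every mouse of the Col4a3-/- groups. Veh against WT and Anti-miR-21 against Veh gave log2 fold changes of 0.81 ± 0.08 (SE, n = 6 and 5 mice, edgeR adjusted p = 1.38e-08) and -0.41 ± 0.07 (n = 6 and 6, edgeR adjusted p = 0.000104). ACEi against Veh gave -0.20 ± 0.09 (n = 3 and 6), with an edgeR adjusted p of 0.0927 although the groups did not overlap.

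Among the collagen-binding α chains, Itga1 (ENSMUSG00000042284, chr13:114953096-115101964, minus strand), found on mesangial and smooth muscle cells and on endothelium, measured 26.5, 30.1, 25.7, 24.5 and 20.1 CPM in WT. In Veh it ranged from 40.5 to 47.9 CPM with a median of 43.5, in Anti-miR-21 from 28.2 to 36.5 with a median of 33.8, and in ACEi it measured 43.1, 37.6 and 40.6. The ACEi values overlapped with those of Veh and lay above all those of Anti-miR-21. Its log2 fold change was 0.78 ± 0.09 for Veh against WT (edgeR adjusted p = 7.98e-08), -0.40 ± 0.08 for Anti-miR-21 against Veh (0.000294) and -0.11 ± 0.10 for ACEi against Veh (0.406). Anti-miR-21 against ACEi gave -0.29 ± 0.10 with an edgeR adjusted p of 0.176. Exons of Itga1 share 685 bases with another annotated gene on the same strand, Gm49395, so its counts could be split.

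Itga11 (ENSMUSG00000032243, chr9:62677826-62783982, plus strand), the fibrillar collagen receptor of fibroblasts and myofibroblasts, was close to absent in WT, with 0 to 9 counts per library and 0.401, 0.164, 0.211, 0.245 and 0 CPM. It ranged from 1.24 to 2.41 CPM in Veh with a median of 2.09, from 0.960 to 1.61 in Anti-miR-21 with a median of 1.10, and measured 1.25, 1.50 and 1.84 in ACEi. The WT mice lay below all others, whereas the 3 Col4a3-/- groups overlapped. The fitted log2 value was 3.27 ± 0.37 for Veh against WT and -0.78 ± 0.28 for Anti-miR-21 against Veh. The latter lost its call without Veh mouse A9 (-0.70) and without Anti-miR-21 mouse A15 (-0.73). Itga2 (ENSMUSG00000015533, chr13:114833081-114932100, minus strand), the α2 chain of epithelium and platelets, was rarer still, with 0 to 6 counts in the WT mice, 9 to 25 in Veh, 0 to 8 in Anti-miR-21 and 4 to 6 in ACEi. The Veh mice lay above all others, and the 3 remaining groups overlapped. The fitted log2 value was 2.41 ± 0.58 for Veh against WT, from 2.10 to 3.35 with a mouse left out, and -1.69 ± 0.49 for Anti-miR-21 against Veh. ACEi against Veh gave -1.52 ± 0.62, which was called without Veh mouse A16 (-1.61).

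**Figure D1:**
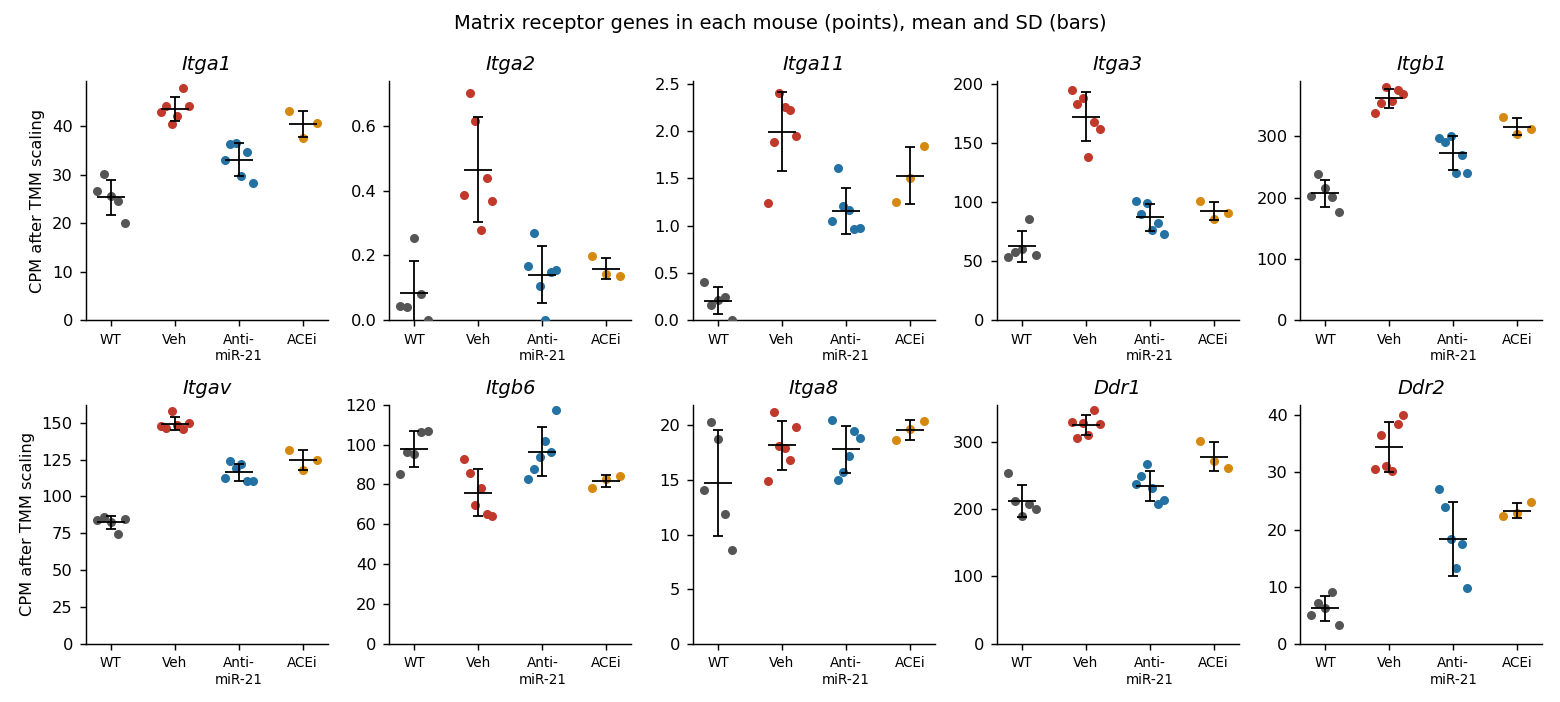
CPM after TMM scaling (vertical axes, each from 0) of the 10 receptor genes in each mouse of the WT (n = 5), Veh (6), Anti-miR-21 (6) and ACEi (3) groups, with the group mean and SD as bars. Itgb1, Itga3, Itgav, Ddr1 and Ddr2 are higher in every Veh mouse than in any mouse of the other groups. The sparse Itga2 is too, but with 9 counts in the lowest Veh mouse beside 8 in the highest Anti-miR-21 mouse. How many of all genes separate this way was not counted, and 39.0% were called higher in Veh than in WT. Itga8 overlaps between all groups. Itgb6 is lower in Veh than in WT on this scale, a direction that turns when library totals alone are used.

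Itga3 (ENSMUSG00000001507, chr11:95044474-95076801, minus strand), the laminin-binding α chain of podocytes and tubules, rose most of the abundant genes. It measured 53.4, 57.9, 60.5, 85.9 and 55.0 CPM in WT, from 138 to 195 in Veh with a median of 176, from 73.3 to 101 in Anti-miR-21 with a median of 86.0, and 101, 85.5 and 90.5 in ACEi. Every Veh mouse lay above all others, and the treated mice overlapped with the highest WT mouse, A17, which lay apart from the other WT mice. The log2 fold change was 1.46 ± 0.12 for Veh against WT (edgeR adjusted p = 1.49e-09), -0.99 ± 0.11 for Anti-miR-21 against Veh (edgeR adjusted p = 5.26e-07) and -0.90 ± 0.14 for ACEi against Veh (edgeR adjusted p = 8.23e-05). Against WT, the treated groups remained higher by 0.48 ± 0.12 for Anti-miR-21 (edgeR adjusted p = 0.00349) and 0.56 ± 0.14 for ACEi (edgeR adjusted p = 0.0031).

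Itgav (ENSMUSG00000027087, chr2:83724397-83806916, plus strand), the αv chain of vitronectin and fibronectin receptors and of the integrins that release TGF-β, had the lowest p of the 10 between Veh and WT. It measured 84.3, 86.0, 82.4, 74.5 and 84.7 CPM in WT, from 146 to 158 in Veh with a median of 148, from 111 to 124 in Anti-miR-21 with a median of 116, and 132, 118 and 125 in ACEi. WT lay lowest, Veh highest and both treated groups between them with no overlap. Its log2 fold change was 0.86 ± 0.05 for Veh against WT (edgeR adjusted p = 2.65e-11), -0.36 ± 0.05 for Anti-miR-21 against Veh (edgeR adjusted p = 3.98e-06) and -0.26 ± 0.06 for ACEi against Veh (edgeR adjusted p = 0.00229). Itga8 (ENSMUSG00000026768, chr2:12106632-12301922, minus strand), the nephronectin receptor of mesangial and smooth muscle cells, measured 14.1, 20.3, 18.8, 11.9 and 8.60 CPM in WT, from 15.0 to 21.3 in Veh, from 15.0 to 20.5 in Anti-miR-21 and 18.6, 19.7 and 20.4 in ACEi. Its groups overlapped in every comparison. The log2 fold change of 0.30 ± 0.16 for Veh against WT had an edgeR adjusted p of 0.0933, which became 0.014 without WT mouse A6 and 0.0345 without WT mouse A14, and 0.0234 with upper-quartile scaling. Among the libraries of flow cell A alone the value was 0.01.

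Itgb6 (ENSMUSG00000026971, chr2:60598292-60722643, minus strand), the epithelial partner of αv, measured 85.1, 96.1, 95.4, 106 and 107 CPM in WT. It ranged from 64.0 to 92.7 in Veh with a median of 73.8, from 82.6 to 117 in Anti-miR-21 with a median of 94.9, and measured 78.3, 82.8 and 84.3 in ACEi. Veh overlapped with WT and with both treated groups. The log2 fold change was -0.37 ± 0.10 for Veh against WT (edgeR adjusted p = 0.00255) and 0.35 ± 0.10 for Anti-miR-21 against Veh (edgeR adjusted p = 0.00402) with TMM scaling, but 0.21 (adjusted p = 0.0428) and -0.00 (adjusted p = 0.993) with library totals alone. Relative to the median of all genes, 0.07 with TMM and 0.65 with library totals, Itgb6 lay lower in Veh with either scaling. A change of scaling moves a gene and that median together, so this distance cannot decide between the directions. Among the libraries of flow cell A alone the Veh value was -0.23 (adjusted p = 0.144). ACEi against Veh gave 0.11 ± 0.12 (edgeR adjusted p = 0.482).

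Ddr1 (ENSMUSG00000003534, chr17:35681567-35704621, minus strand), the discoidin receptor of epithelium, measured 253, 211.7, 190, 207.2 and 200 CPM in WT. It ranged from 306 to 347 in Veh with a median of 328, from 207.7 to 267 in Anti-miR-21 with a median of 235, and measured 302, 272 and 261 in ACEi. Every Veh mouse lay above all others, Anti-miR-21 overlapped with WT and ACEi lay above WT. Ddr1 had a log2 fold change of 0.61 ± 0.08 for Veh against WT (edgeR adjusted p = 5.95e-07), -0.47 ± 0.07 for Anti-miR-21 against Veh (edgeR adjusted p = 1.98e-05) and -0.23 ± 0.09 for ACEi against Veh (edgeR adjusted p = 0.0562). Ddr2 (ENSMUSG00000026674, chr1:169972307-170110762, minus strand), the discoidin receptor of fibroblasts and other mesenchymal cells, measured 4.99, 7.22, 6.29, 9.12 and 3.23 CPM in WT. It ranged from 30.2 to 40.0 in Veh with a median of 33.9, from 9.77 to 27.0 in Anti-miR-21 with a median of 17.8, and measured 22.3, 22.8 and 24.8 in ACEi. The WT mice lay lowest and the Veh mice highest, with no overlap with the treated mice. Ddr2 had a log2 fold change of 2.48 ± 0.24 for Veh against WT (edgeR adjusted p = 1.09e-08), about 5.58-fold, and -0.91 ± 0.21 for Anti-miR-21 against Veh (edgeR adjusted p = 0.000805). ACEi against Veh gave -0.57 ± 0.26 (edgeR adjusted p = 0.086), a value that passed when only these 2 groups were fitted (adjusted p = 0.00221). Exons of Itga8, Itgav, Ddr1 and Ddr2 overlap with annotated genes on the opposite strand, from 90 bases for Ddr2 to 634 for Itgav.

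Anti-miR-21 against Veh therefore gave 8 receptor genes lower (Itga1, Itga2, Itga3, Itga11, Itgav, Itgb1, Ddr1 and Ddr2), Itgb6 higher and Itga8 not passing, or 6 lower and 1 higher without Itga2 and Itga11, beside 30.5% of all genes called lower and 28.8% higher. With library totals alone 9 were lower and 0 higher, and the share of higher genes among all calls moved from 48.6% to 19.96%. ACEi against Veh gave only Itga3 and Itgav lower with edgeR over all groups and 0 higher, beside 19.1% of all genes lower and 21.0% higher. This count rested on the fit more than any other. Of the 10 genes, 6 had an unadjusted p under 0.05. DESeq2 called 5 lower, beside 3809 of all 17622 genes. The fit of only these groups called 6 lower, beside 3637 of 17130 genes. Library totals alone called 7 lower, beside 7389 of 17622 genes, with the share of higher genes among all calls moving from 52.4% to 20.5%. With flow cell as a term only Itga3 and Itgav passed, and Ddr1 had an edgeR adjusted p of 0.0618. Both comparisons share the Veh mice. Of the Anti-miR-21 libraries 5 of 6 ran on flow cell A, and of the ACEi libraries 1 of 3, so these groups also differed in flow cell. The direct comparison of Anti-miR-21 with ACEi called 0 of the 10 genes with edgeR, as did DESeq2, beside 0.363% of all genes higher and 0.221% lower, while 3 of the 10 (Itga1, Itgb1 and Ddr1) had an unadjusted p under 0.05. The value was lower in Anti-miR-21 for 9 of the 10, Itgb6 being the exception, and the 95% intervals ran from -0.48 to -0.10 for Itga1, from -0.39 to -0.03 for Itgb1 and from -0.36 to 0.19 for Itga3.

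**Figure D2:**
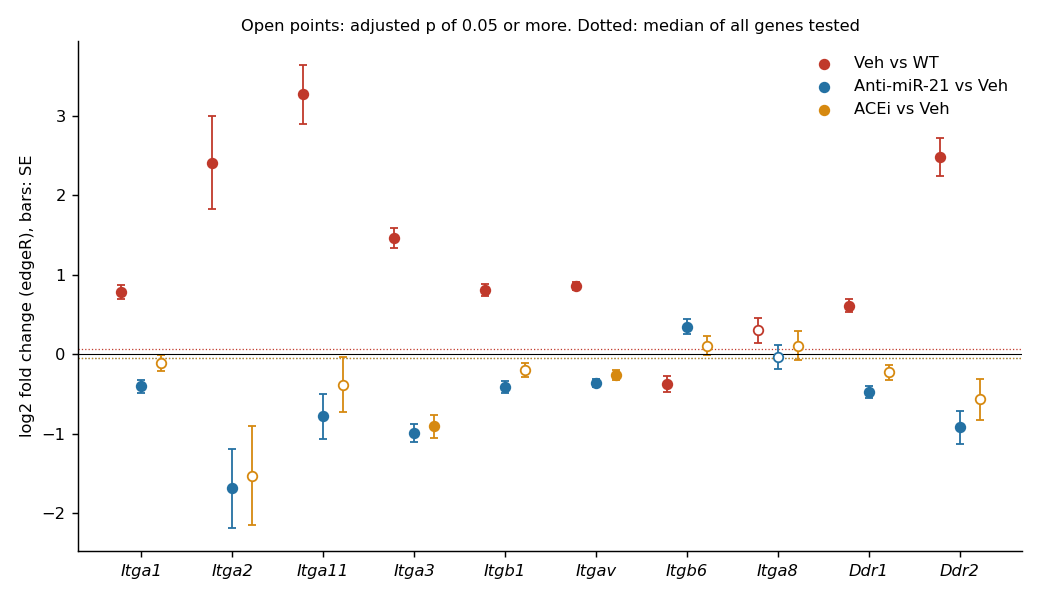
Log2 fold change (vertical axis, edgeR with TMM scaling, bars are SE) of the 10 receptor genes for Veh against WT, Anti-miR-21 against Veh and ACEi against Veh. Filled points have an adjusted p under 0.05 (9, 9 and 2 genes), and open points do not. Each 9 includes Itga2 and Itga11, which passed the filter only through the mice in which they were high. Of all genes 39.0% were called higher and 34.0% lower in Veh against WT. For Anti-miR-21 against Veh this was 28.8% and 30.5%, and for ACEi against Veh 21.0% and 19.1%. The dotted lines mark the median of all genes tested. In the first 2 comparisons Itgb6 lies opposite to the other filled points, which with library totals turns in Veh against WT (0.21) and ends in Anti-miR-21 against Veh (-0.00).

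Against WT, 6 genes stayed higher in Anti-miR-21 (Itga1, Itga3, Itga11, Itgav, Itgb1 and Ddr2) and 7 in ACEi (the same genes and Ddr1), with 0 lower in either. Itga11 passed the filter only through the mice in which it was high, so its call is a description. Without it the other genes named remain. Of all genes, 23.9% were higher and 19.8% lower in Anti-miR-21, and 25.2% were higher and 22.5% lower in ACEi. With library totals 8 receptor genes were higher in each, and the share of higher genes among all calls moved from 54.6% to 88.6% and from 52.7% to 85.6%. Ddr2 stayed higher by 1.57 ± 0.24 (edgeR adjusted p = 2.65e-05) and 1.92 ± 0.27 (edgeR adjusted p = 8.8e-06). The fitted values of the sparse Itga11 were 2.49 ± 0.38 and 2.89 ± 0.41. Ddr1 in Anti-miR-21 gave 0.14 ± 0.08 (edgeR adjusted p = 0.148), which passed without WT mouse A3 (0.22, adjusted p = 0.0246). Itgb6 gave -0.02 ± 0.10 in Anti-miR-21 (edgeR adjusted p = 0.883) and -0.26 ± 0.12 in ACEi (edgeR adjusted p = 0.0867).

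Per length of transcript, which is the scale that lets genes be compared, Itgb1 and Ddr1 were the most abundant of the 10 in every group. The deposited FPKM (fragments per kilobase of transcript, scaled to library size) averaged 48.4 ± 4.53 (SD, n = 5) for Ddr1 and 47.9 ± 3.73 for Itgb1 in WT, and 112 ± 9.23 and 135 ± 13.03 (n = 6) in Veh, with overlapping mice in each group. In WT the order then ran Itgb6 (16.8), Itga3 (11.0), Itgav (9.71), Itga1 (3.59), Itga8 (2.08), Ddr2 (0.618), Itga11 (0.0338) and Itga2 (0.0164). Itgb6 overlapped with Itga3, Itga3 with Itgav, Itga1 with Itga8 and Itga11 with Itga2, so these neighbours were not apart beyond their spread. In Veh the order ran Itga3 (45.9), Itgav (26.5), Itgb6 (19.5), Itga1 (9.29), Ddr2 (5.22), Itga8 (3.86), Itga11 (0.503) and Itga2 (0.138), and only Ddr2 and Itga8 overlapped below the leading pair. Itgb6 thus lay below Itga3 and Itgav with no overlap in Veh, whereas in WT it overlapped with Itga3 and lay above Itgav. In Anti-miR-21 there was overlap between Itgb6 (19.3), Itga3 (18.2) and Itgav (16.4), and in ACEi Itga3 (20.1), Itgav (18.3) and Itgb6 (17.4) overlapped. The authors marked the FPKM entries of Itga1, Itga8 and Ddr2 as confounded with other genes.

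**Figure D3:**
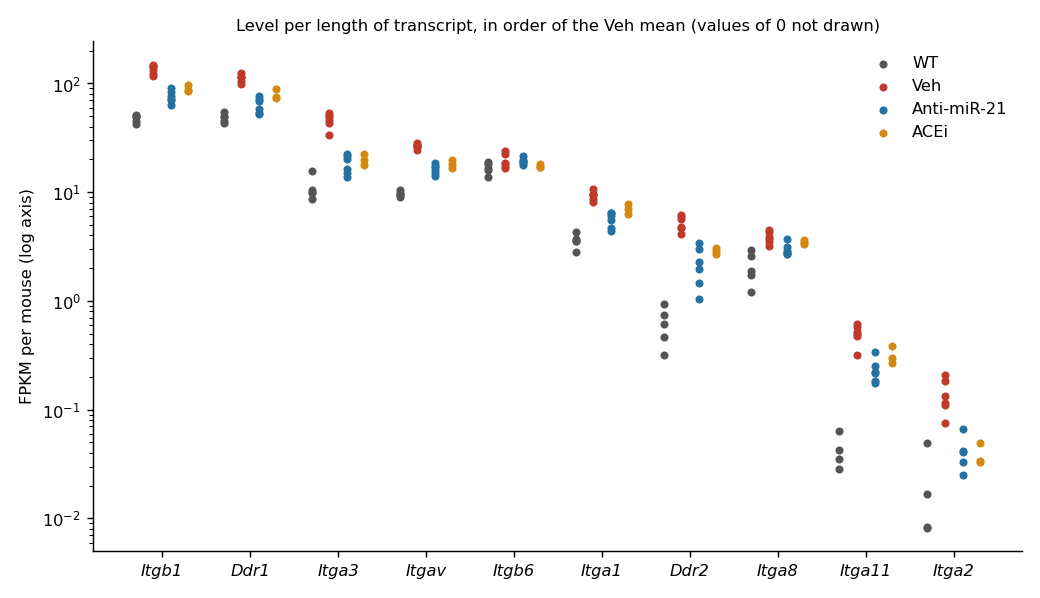
FPKM of each mouse (vertical log axis) for the 10 receptor genes, ordered by the Veh mean, with the 4 groups as colours and values of 0 left out. The 2 lowest genes, Itga11 and Itga2, lie below 1 FPKM in every mouse, while Itgb1 and Ddr1 lie above 40 in every mouse.

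A ratio between the genes of a receptor pair within the same mouse does not depend on the scaling between libraries. Ratios of FPKM were taken for 8 pairs, each α chain to Itgb1, Itgb6 to Itgav and Ddr2 to Ddr1, and compared between groups with exact two-sided permutation tests, adjusted over 48 tests, a choice made after the values above were seen. Itgb6 to Itgav was 1.46, 1.61, 1.66, 2.09 and 1.83 in the WT mice, from 0.623 to 0.908 in Veh with a median of 0.701, from 1.02 to 1.53 in Anti-miR-21 with a median of 1.17, and 0.862, 1.01 and 0.983 in ACEi. Neither WT nor Anti-miR-21 overlapped with Veh, and Anti-miR-21 lay above ACEi. Flow cell A held 5 of the 6 Anti-miR-21 libraries and 1 of the 3 ACEi libraries, so treatment and flow cell cannot be fully told apart between them. The mean of 0.738 ± 0.122 (SD, n = 6) in Veh against 1.73 ± 0.239 (n = 5) in WT had an exact permutation p of 0.00433 (adjusted 0.0297), the smallest that these group sizes allow. Anti-miR-21, at 1.20 ± 0.187 (n = 6), differed from Veh with an exact permutation p of 0.00216 (adjusted 0.0297) and from WT with an exact permutation p of 0.00866 (adjusted 0.0416). ACEi, at 0.952 ± 0.0796 (n = 3), differed from Veh with an exact permutation p of 0.0476 (adjusted 0.104) and from Anti-miR-21 with 0.0238, the smallest allowed (adjusted 0.0714).

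The ratio of Itga3 to Itgb1 was 0.228 ± 0.0461 (n = 5) in WT, 0.339 ± 0.0265 in Veh, 0.238 ± 0.0303 in Anti-miR-21 and 0.224 ± 0.0276 in ACEi. The exact permutation p was 0.00866 (adjusted 0.0416) for Veh against WT and 0.00433 (adjusted 0.0297) for Anti-miR-21 against Veh. For ACEi against Veh it was 0.0238 (adjusted 0.0714), the smallest that 3 against 6 mice can give. Itga3 mRNA thus rose in Veh relative to that of its partner. Ddr2 to Ddr1 was 0.0128 ± 0.00505 in WT and 0.0464 ± 0.00591 in Veh (exact permutation p = 0.00433, adjusted 0.0297), so Ddr1 remained the more abundant mRNA of the pair. In Anti-miR-21 it was 0.0338 ± 0.011, with an exact permutation p against Veh of 0.0368 (adjusted 0.0883). Itga11 to Itgb1 was 0.000715 ± 0.000534 in WT and 0.00378 ± 0.000917 in Veh, a description that restates how rare Itga11 was in WT. Itga1 to Itgb1 was 0.075 ± 0.0101 in WT and 0.0694 ± 0.00827 in Veh (exact permutation p = 0.333), and Itgav to Itgb1 was 0.204 ± 0.0186 and 0.198 ± 0.0164 (exact permutation p = 0.58). For these pairs no difference between Veh and WT was detected at this number of mice. Itga8 to Itgb1 was 0.0431 ± 0.013 in WT and 0.0289 ± 0.00456 in Veh (exact permutation p = 0.0519, adjusted 0.108).

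**Figure D4:**
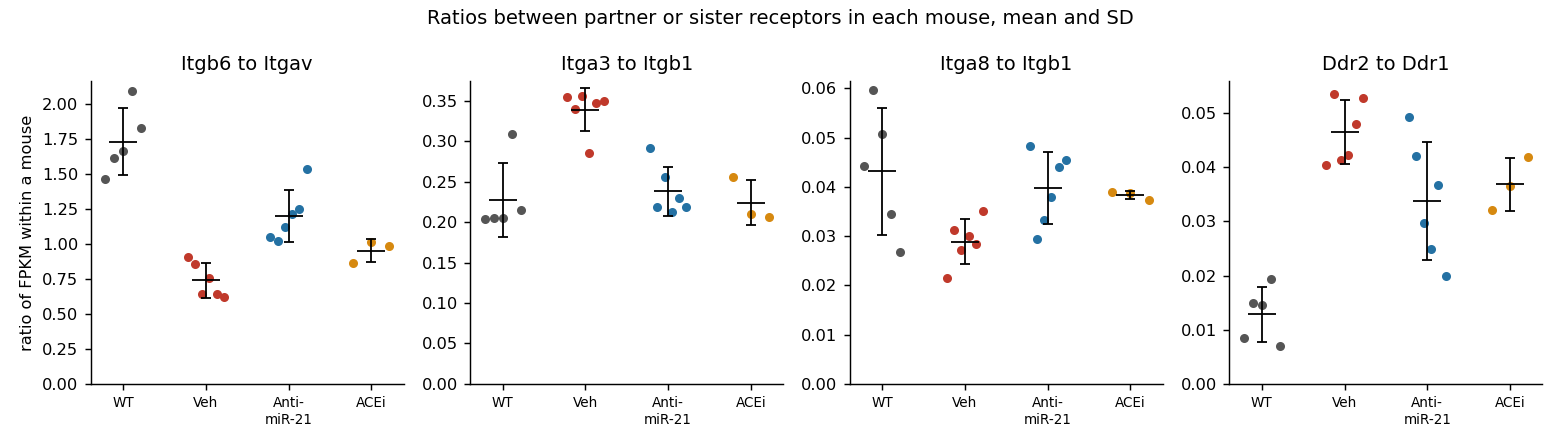
Ratio of FPKM within each mouse (vertical axes, each from 0) for Itgb6 to Itgav, Itga3 to Itgb1, Itga8 to Itgb1 and Ddr2 to Ddr1, with the group mean and SD as bars. Itgb6 to Itgav lies between 1.46 and 2.09 in WT and between 0.623 and 0.908 in Veh, with the Anti-miR-21 mice between these groups apart from 1 above the lowest WT value.

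The other genes of matrix adhesion moved in the same comparisons. Of the 25 matrix ligands, 22 were higher and 2 lower in Veh than in WT, beside 39.0% and 34.0% of all genes, led by the matricellular glycoprotein Tnc (4.77, edgeR adjusted p = 4.12e-10) and the fibrillar collagen chain Col3a1 (4.59, edgeR adjusted p = 4.92e-11). The 2 lower were the laminin chains Lama1 (-0.59) and Lama3 (-0.52), which with library totals gave -0.01 and 0.06. In Anti-miR-21 against Veh, where 30.5% of all genes were lower and 28.8% higher, 21 ligands were lower, with Tnc at -2.42 and Col3a1 at -2.25, and 1 was higher, Lama1 at 0.34 (-0.00 with library totals). In ACEi against Veh, beside 19.1% of all genes lower and 21.0% higher, 17 ligands were lower, with Lamb3 at -1.94 and Tnc at -1.65, and 2 were higher, Lama3 at 0.36 and Lama1 at 0.32 (0.09 and 0.05 with library totals). The median over the ligands was 2.20 for Veh against WT, above that of the 10 receptors.

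Of 19 other integrin subunits 18 were tested (Itgb2l was not), and 16 were higher and 2 lower in Veh than in WT, beside 39.0% and 34.0% of all genes. Among the higher were α chains of leukocyte integrins, Itgam (4.44) and the sparse Itgad, which had 0 to 1 counts in WT and 4 to 28 in Veh, passed the filter only through the mice in which it was high and is given without a fold. The lower ones were Itga2b (-1.19), the platelet α chain, and Itgb8 (-0.94), another TGF-β-releasing partner of αv. Their directions held with library totals. On the FPKM scale Itgb8 gave 0.09 (limma adjusted p = 0.285). Its FPKM entry, from a different gene model, averaged only 0.465 in WT beside 104 CPM, so it cannot decide the direction. In Anti-miR-21 against Veh 15 were lower and 2 higher, beside 30.5% and 28.8% of all genes. Itgb4, the laminin-binding β chain of hemidesmosomes, gave -1.999 (edgeR adjusted p = 1.23e-07), Itgb3 -1.60, Itgb8 0.93 and Itga2b 0.62. In ACEi against Veh 8 were lower and 1 higher, beside 19.1% and 21.0% of all genes. Here Itgb4 gave -1.75, Itgb3 -0.97 and Itgb8 0.75, and with library totals alone 13 subunits were lower and 1 higher. Of the 5 other collagen receptors 3 were tested (Gp6 and Oscar were not), and all 3 were higher in Veh than in WT, led by the leukocyte inhibitory receptor Lair1 (3.94) and the endocytic receptor Mrc2 (2.78). All 3 were lower in Anti-miR-21 (Lair1 -1.50, Mrc2 -1.16) and in ACEi (-1.004 and -0.51) than in Veh.

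Inside the cell, 15 of the 30 genes of cytoplasmic adhesion proteins (50.0%) were higher and 5 (16.7%) lower in Veh than in WT, beside 39.0% and 34.0% of all genes. The leukocyte forms Parvg (3.34) and Fermt3 (3.27), a parvin and a kindlin, led, and the talin Tln2 (-1.37) and the tensin Tns1 (-0.86) fell most. With library totals 26 were higher and 2 lower. In Anti-miR-21 against Veh, beside 30.5% of all genes lower and 28.8% higher, 14 were lower (Parvg -1.28, Actn1 -1.20) and 5 higher (Tln2 0.92, Tns1 0.47). In ACEi against Veh, beside 19.1% lower and 21.0% higher, 13 were lower (Flna -0.86, Actn1 -0.72) and 4 higher (Tln2 0.71, Tns1 0.32, the latter 0.05 with library totals). With library totals these became 25 lower and 1 higher, and 23 lower and 1 higher. Without ACEi mouse A11 or without A13, the ACEi count was 8 lower and 1 higher. Of the 8 membrane partners, 6 were called higher between Veh and WT, with the urokinase receptor Plaur at 2.37 and the tetraspanin Cd9 at 1.45, and 5 were lower in Anti-miR-21 than in Veh (Plaur -1.27, Cd9 -0.86), or all 8 with library totals. In ACEi against Veh 4 were lower (Plaur -0.84, Cd9 -0.62) and Slc3a2, which gave 0.02 with library totals, was higher at 0.30. Without ACEi mouse A13 that count was 2 lower and 0 higher, and with library totals 7 lower. Against ACEi, 0 genes of these lists were called in Anti-miR-21 with edgeR over all groups. DESeq2 called 5 matrix ligands, 1 other collagen receptor and 1 cytoplasmic protein. Of all 17622 genes it called 225 higher in Anti-miR-21, which was 51.1% of its calls. With only these groups fitted edgeR called 1 ligand, beside 85 of 16629 genes higher, which was 60.3% of its calls. It also called 1 ligand without Anti-miR-21 mouse A2 or A10, and 2 ligands, 1 collagen receptor and 1 cytoplasmic protein without A8. The directions of these list calls, and the shares of all genes called without a mouse, are not given here.
Against WT, 19 of the 25 ligands and 12 of the 18 integrin subunits stayed higher in Anti-miR-21, beside 23.9% of all genes, and 19 and 14 in ACEi, beside 25.2%. The most raised called genes of each list, with the values in Anti-miR-21 and ACEi in that order, were Itgax (3.27 and 3.67) among the integrin subunits, beside the sparse Itgad with 0 to 16 and 2 to 19 counts, Spp1 (3.22 and 3.48) among the ligands, with Fn1 at 2.46 in Anti-miR-21 and Col3a1 at 3.28 in ACEi, Lair1 (2.43 and 2.93) and Mrc2 (1.62 and 2.27) among the collagen receptors, Parvg (2.06 and 2.75) and Fermt3 (2.12 and 2.56) among the cytoplasmic proteins and Plaur (1.10 and 1.53) and Cd9 (0.59 and 0.83) among the membrane partners. Itga2b (-0.57 and -0.83), Tln2 (-0.44 and -0.66) and Tns1 (-0.39 and -0.54) stayed lower in both, and Lama3 (-0.54) and Lama1 (-0.26, and -0.01 with library totals) in Anti-miR-21. With library totals 0 of the cytoplasmic proteins, Tln2 and Tns1 included, were called lower than in WT in either group.

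**Figure D5:**
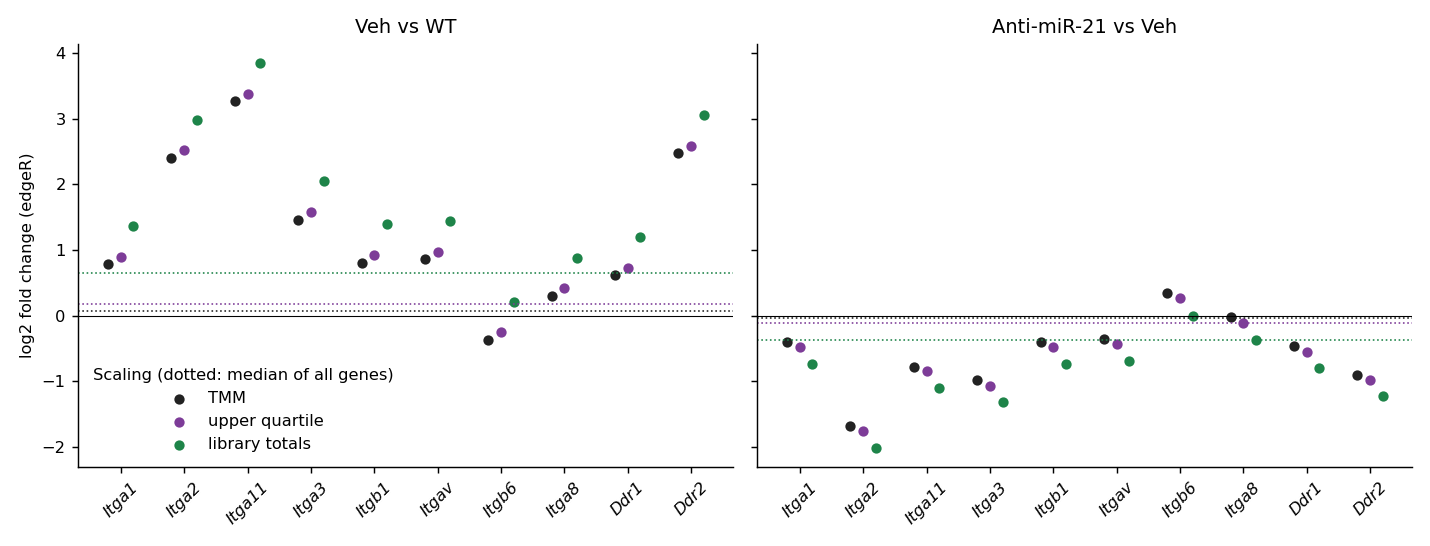
Log2 fold change (vertical axis, edgeR) of the 10 receptor genes for Veh against WT (left) and Anti-miR-21 against Veh (right) with TMM, upper-quartile and library-total scaling, with the median of all genes for each scaling dotted. Library totals raise every Veh value together with the median of all genes, from 0.07 to 0.65, and only Itgb6 changes sign.

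The summed levels of cell type markers differed between the groups in the same mice. Summed over 5 markers each, fibroblast and pericyte genes ranged from 78.6 to 180 CPM in WT, 437 to 580 in Veh, 274 to 465 in Anti-miR-21 and 332 to 372 in ACEi. Of these, Dcn averaged 186 CPM in Anti-miR-21 and 181 in Veh. Macrophage genes ranged from 125 to 138, 575 to 695, 248 to 356 and 319 to 380 CPM in the same order, and smooth muscle genes (3 markers) from 57.4 to 89.0, 220 to 324, 104 to 152 and 141 to 169. Against WT, 1 of the 3 smooth muscle markers was called higher in each treated group, beside 23.9% (Anti-miR-21) and 25.2% (ACEi) of all genes. Their median log2 fold changes against WT were -0.11 in Anti-miR-21 and -0.37 in ACEi, unlike the sums. Proximal tubule genes ranged from 11688 to 14986 CPM in WT, 1291 to 3629 in Veh, 6394 to 10660 in Anti-miR-21 and 6650 to 8710 in ACEi, and tubule injury genes (4 markers) from 15.3 to 32.0, 546 to 1062, 157 to 352 and 308 to 352. Podocyte genes (5 markers) ranged from 195 to 324 CPM in WT, 347 to 413 in Veh, 429 to 486 in Anti-miR-21 and 410 to 427 in ACEi, so with TMM scaling WT lay below the Col4a3-/- groups and Anti-miR-21 above Veh. In Anti-miR-21 against Veh 3 of the 5 podocyte markers were called higher and 1 lower (28.8% and 30.5% of all genes), but 2 and 2 with library totals. In ACEi against Veh 2 were called higher and 0 lower (21.0% and 19.1% of all genes), but 0 and 2 with library totals. Thick ascending limb genes (3 markers) ranged from 5368 to 6557 CPM in WT, 2029 to 4665 in Veh, 4232 to 5760 in Anti-miR-21 and 3369 to 4977 in ACEi, and T cell genes (5 markers) from 0.802 to 2.13, 12.1 to 32.2, 7.73 to 15.95 and 10.9 to 17.8. In Veh against WT 1 of the 3 thick ascending limb markers was called higher and 2 lower, beside 39.0% and 34.0% of all genes. Endothelial and collecting duct genes overlapped between WT and Veh, at 86.4 to 244 and 199 to 253 CPM and at 375 to 718 and 220.6 to 555 CPM. No marker of these lists was at 0 in every mouse of a group. In whole kidney, fewer cells of a type and less RNA per cell cannot be told apart, and the part of these shifts in the receptor values was not tested.

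Over the 20 mice, the genes whose log2 CPM ran most like each called receptor were found among 12562 protein-coding genes by Pearson's r. The r largely follows the 4 groups, so the r after subtraction of group means is given beside it, and both are descriptions. Itgb1 ran most like Col4a1, Trim35 and Setd7 (r = 0.986, 0.984 and 0.984, and 0.906, 0.933 and 0.872 within groups), and Itga1 most like Col4a1, Tfe3 and Ankfy1 (0.966, 0.965 and 0.964, and 0.788, 0.858 and 0.827). Col4a1, a chain of the basement membrane collagen that remains without the α3 chain, headed the lists of both partners of α1β1 by the r over all mice. Within groups Trim35 lay above it for Itgb1, and Tfe3 and Ankfy1 for Itga1. Itga3 ran most like Bcam, a laminin receptor, Hdac7 and Plec, a plakin of hemidesmosomes (0.986, 0.985 and 0.983, and 0.895, 0.866 and 0.842). Ddr2 ran most like Serping1, Orai2 and the mesenchymal cadherin Cdh11 (0.985, 0.982 and 0.982, and 0.899, 0.929 and 0.893). Itga11 ran most like the leukocyte genes Havcr2, Evi2b and Vav1 (0.972, 0.970 and 0.970, and 0.816, 0.793 and 0.813). Itgav ran most like Chaf1b, Klhl23 and Casp12 (0.985, 0.983 and 0.983, and 0.801, 0.730 and 0.433), Ddr1 most like Vars, Rhbdf1 and Cdk6 (0.960, 0.955 and 0.951, and 0.816, 0.837 and 0.661) and Itga2 most like B3gnt8, Adamtsl1 and Tor4a (0.952, 0.894 and 0.894, and 0.892, 0.694 and 0.702). Itgb6 ran most like Tomm6 of the mitochondrial import channel and Dad1 and Ost4 of the oligosaccharyltransferase (0.921, 0.915 and 0.914, and 0.833, 0.823 and 0.839). Among the receptors themselves, the r within groups was highest for Itga1 with Itgb1 (0.837) and lowest for Itgb1 with Itgb6 (-0.638).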

How the data were processed

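The authors aligned paired-end reads of whole kidney RNA to GRCm38 in OmicSoft Studio. The estimated count of each Ensembl gene was deposited by the authors with no scaling between mice. Their deposited FPKM table uses a different gene model and is normalized for length and library size. The deposited library table gives the count of alignments per library, 70004591 to 73294858, and the flow cell. The FPKM table holds 3 further columns of libraries that matched no mouse of these groups and were not used. Of the positive estimated counts 29.1% were not whole, and all were rounded. Groups were taken from the labels. Gene symbols were matched by Ensembl ID for 98.8% of genes.

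Genes were filtered with filterByExpr (minimum count 10, minimum total 15), scaled with TMM and tested by quasi-likelihood in edgeR 4.0.16 (R 4.3.3), with 1 coefficient per group over all 20 mice, so that ACEi (n = 3) shares the spread of the other groups, and Benjamini-Hochberg adjustment over 17622 genes at 0.05. SEs are the log2 fold change over the root of its F statistic, and 95% intervals are normal. DESeq2 1.42.0 and limma 3.58.1 on log2(FPKM + 1) and log2(FPKM + 0.1) were alternatives, with other scalings and filters, flow cell as a term, flow cell A alone (13 of 20 libraries, not run for ACEi, which has 1 there), a fit of the compared groups alone, and the omission of every mouse once. Log2 CPM used a prior count of 2. Ratios and permutation tests used scipy 1.17.1. The 10 genes and all gene lists were chosen with earlier results of these data known, so the counts over lists are descriptions. Named genes were the 10 receptors, for each other list and comparison the 2 called genes that rose most and the 2 that fell most, and the 3 genes most like each receptor among protein-coding genes whose mean log2 CPM was 1 or more. The fits were tested on simulated data in which a small set of genes changed, balanced between higher and lower. That setting cannot check the scaling for shifts as wide as those seen here. Sequences came from RefSeq tables and GENCODE vM21 on GRCm38, and all 10 genes were found in them. Precision is limited by the number of mice and, for Itga2 and Itga11, also by their low counts.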

Additional observations from a re-analysis of the deposited data

Results flagged for a closer look

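Dixon's test of the highest and the lowest mouse was applied to the log2 CPM of the 10 receptor genes in the WT, Veh and Anti-miR-21 groups, 30 groups of values in all, of which chance would mark about 1 in 20. It marked 2. The highest WT mouse for Itga3, A17, had 85.9 CPM against 53.4 to 60.5 in the other WT mice, a gap of 0.735 of the group's range beside a critical value of 0.71. Without it Itga3 in Veh against WT gave 1.61 in place of 1.46. The highest Veh mouse for Itgav, A9, had 158 CPM against 146 to 150 in the other Veh mice, a gap of 0.694 of the range beside a critical value of 0.625.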

How the results depend on the processing

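The count of receptor genes called between Veh and WT was 9 and ran from 8 to 10 over all alternatives. That for Anti-miR-21 against Veh was 9 and ran from 7 to 9, from 8 to 9 with a mouse left out. Each 9 includes Itga2 and Itga11, which passed the filter only through the mice in which they were high. Of all genes 39.0% were higher and 34.0% lower in Veh than in WT. In Anti-miR-21 against Veh 28.8% were higher and 30.5% lower. Anti-miR-21 against ACEi gave 0 under every alternative run, Anti-miR-21 against WT 5 to 8 and ACEi against WT 7 to 8. The count for ACEi against Veh, 2 in the main setting, was 2 to 3 with a mouse left out, 5 with DESeq2 and with upper-quartile scaling, 6 with only the groups compared, 7 with library totals alone and 8 on the FPKM scale with a pseudocount of 1, of 0.1 or with no filter. With flow cell as a term only Itga3 and Itgav passed in ACEi against Veh. In that comparison 7389 of 17622 genes were called lower with library totals and 7818 of 17709 on log2(FPKM + 1). Itga2 and Itga11 were not tested when at least 10 counts were asked of every mouse. Itgb6 turned in Veh against WT to 0.21 with library totals, 0.20 on log2(FPKM + 1) with and without the filter and 0.21 on log2(FPKM + 0.1), and in Anti-miR-21 against Veh to -0.00089 with library totals, -0.0026 on log2(FPKM + 1) with and without the filter and -0.0023 on log2(FPKM + 0.1). The median of all genes moved with library totals from 0.07 to 0.65 for Veh against WT, from -0.04 to -0.38 for Anti-miR-21 against Veh and from -0.05 to -0.32 for ACEi against Veh. The cause of the other changes was not tested. No paired analysis was possible because no replicate name occurs in more than 1 group. Of the 48 ratio comparisons, 44 kept their side of 0.05 with counts per exonic base in place of FPKM and 0 reversed. Of 480 with a mouse left out 416 kept it and 0 reversed, and with 2 ACEi mice 0.05 cannot be reached in some. In flow cell A alone 45 of the 48 differences stayed within the larger group SD of the main value, 3 moved further and 0 reversed. The fall of Ddr2 to Ddr1 in Anti-miR-21 against Veh passed 0.05 unadjusted and lost it without any of Anti-miR-21 A10, A12, A15 and A22 and Veh A4, A19 and A20 (p 0.0563 to 0.0736, exact permutation). Itga1 in Anti-miR-21 against WT lost its call in flow cell A alone (0.25, adjusted p = 0.0609).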
